A study of Mus musculus with 4 samples.

Results

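The protein genes of the cytosolic ribosome were examined in follicular helper T (TFH) cells, which give help to B cells during the germinal centre reaction. A row of the authors' deposited table was taken as a member when 1 of its symbols met a rule. The symbol was Rpl or Rps followed by a number and at most an a, x or l ending, or Rplp0, Rplp1, Rplp2 or Rpsa. The ending letter could carry a digit, as in Rpl7l1 and Rps3a1. Symbols of pseudogenes and the ribosomal S6 kinases were left out. This gave 84 members of 23996 listed genes, 51 of the large (60S) and 33 of the small (40S) subunit, and the authors tested 82 of them for a difference between genotypes.

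Etv5 cKO cells came from Etv5f/f;Cd4-Cre mice, in which Cre driven by Cd4 regulatory sequence deletes floxed Etv5 throughout the T lineage and not only in TFH cells. Wild-type (WT) mice were Etv5f/f without Cre, so both genotypes carried the floxed allele. All were immunized with ovalbumin (OVA) in alum, and after 7 days spleen cells positive for CD4 and CD44 and for CXCR5 and PD-1 were sorted, with 2 libraries per genotype; the labels give neither sex nor age, nor whether the libraries came from separate mice. The table holds 1 FPKM value (read fragments per length of transcript, adjusted for library size) per gene and genotype, so the spread of the libraries and their depth are unknown, and the p-values of the authors' Cuffdiff test may measure technical spread only.

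A ribosome contains 1 copy of nearly every one of these proteins, and cells make them in matched amounts. Their messenger RNAs are among the most abundant of dividing cells. Most begin with a C at the cap followed by a run of pyrimidines, the terminal oligopyrimidine (TOP) motif, through which mTOR and LARP1 set their translation together. T cells build many ribosomes when they are activated, and Etv5 belongs to the ETS transcription factors, which bind DNA around a GGAA core.

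RefSeq promoter windows (build GRCm38.p6, 250 bases before to 50 after the annotated start) were found for 63 of the 84 members, 75 windows in all. A run of at least 8 C or T lay within 20 bases of the start in 46.7% of the member windows, against 21.0% of all 32851 windows. All windows were taken whether or not the gene was expressed in these cells, and some genes have several windows. Expressed non-members were not compared separately. The runs are shown for 4 members, because the TOP motif is itself a run of pyrimidines. The search did not require a run to begin at the start or with a C. A run counted here could lie wholly before or after the start and need not be a TOP motif. Each line covers 40 bases before and 20 from the start, 5′ to 3′ on the gene's strand, with the run in capitals.
Rplp2 (chr7:141447611-141447670, + strand): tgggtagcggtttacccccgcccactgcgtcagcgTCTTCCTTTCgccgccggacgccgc
Rpl28 (chr7:4792925-4792984, + strand): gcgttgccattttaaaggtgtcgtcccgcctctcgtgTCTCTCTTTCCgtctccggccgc
Rpl35 (chr2:39005112-39005171, - strand): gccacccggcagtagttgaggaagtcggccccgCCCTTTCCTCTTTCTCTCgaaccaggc
Rpl7a (chr2:26910767-26910826, + strand): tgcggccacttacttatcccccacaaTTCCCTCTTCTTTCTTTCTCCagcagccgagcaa
The 4 runs are 10, 11, 18 and 21 bases long in this order, and that of Rpl7a is the longest among the members.

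The letters CCGGAAG, which hold the ETS core, were searched on both strands and found in 36.0% of member windows, against 8.86% of all windows. They are shown for 3 members, in capitals, where the match lies close to the start. On the other strand the letters read CTTCCGG and can overlap a run of C and T, as they do in Rpl34; 16 member windows hold both features.
Rpl31 (chr1:39367811-39367870, + strand): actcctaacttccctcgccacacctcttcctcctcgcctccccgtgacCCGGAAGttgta
Rpl38 (chr11:114668540-114668599, + strand): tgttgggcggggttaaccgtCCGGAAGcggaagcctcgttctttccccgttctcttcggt
Rpl34 (chr3:130730318-130730377, - strand): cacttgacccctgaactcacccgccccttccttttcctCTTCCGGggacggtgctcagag
Members with and without the letters had close values: the median log2 fold change was 0.096 over 26 tested members with a match and 0.070 over 35 without. All 26 with a match and 34 of the 35 without were higher in Etv5 cKO as deposited. A match describes these letters and does not show binding. Expressed non-members were not compared separately here either, so the higher share is not shown to be particular to the members.

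In both genotypes the ribosomal protein messages stood at the top of the transcriptome. Of the 100 genes of highest FPKM 64 were members in Etv5 cKO and 64 in WT, and of the top 20 they made up 11 in Etv5 cKO and 10 in WT. At least 1000 FPKM was reached by 54 members in Etv5 cKO and 53 in WT. Together the members held 20.1% of all summed FPKM in Etv5 cKO and 19.4% in WT. Large subunit members had a median of 1154 FPKM in Etv5 cKO and 1074 FPKM in WT. For the small subunit the medians were 1420 FPKM in Etv5 cKO and 1377 FPKM in WT.

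**Figure D1:**
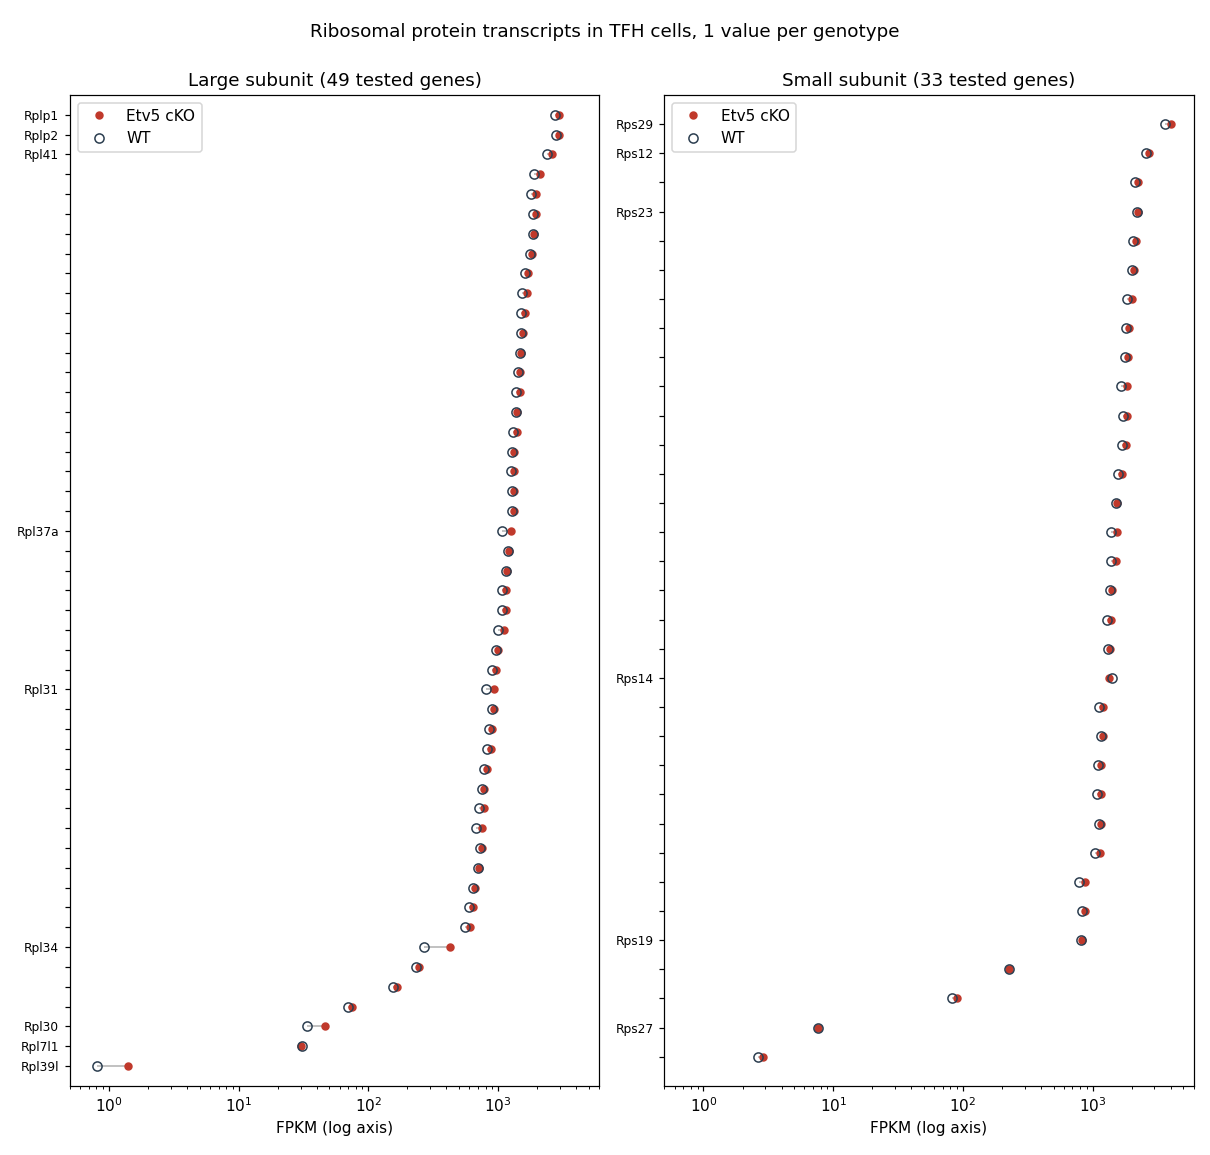
FPKM (log axis) of the 49 tested large subunit and 33 tested small subunit genes in Etv5 cKO (filled) and WT (open), 1 value per genotype, ordered by the level in Etv5 cKO, with symbols for genes of highest level, of highest or lowest fold change and of lowest p. Of the 82 pairs, 71 lie above 500 FPKM in both genotypes, and the 2 values of most genes nearly coincide.

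No ribosomal protein gene passed the authors' test. Of the 82 tested members 0 had a Cuffdiff adjusted p below 0.05 in the authors' deposited table, against 0.346% of all tested genes (40 of 11569); 0.104% of all tested genes were called higher in Etv5 cKO. At an unadjusted p below 0.05 there were again 0 members, against 2.4% of all tested genes. The lowest p of a member was 0.168, and all 82 shared an adjusted p of 0.999. The 40 called genes differed by at least 0.68 on the log2 scale, and none of them had a mean of 500 FPKM or more. A p that misses the threshold does not show that the levels were equal.

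As deposited, nearly all members were slightly higher in Etv5 cKO, but this direction depended on the scaling. By the authors' deposited table, Etv5 cKO had the higher value for 80 of 82 tested members and the lower for 2 (median log2 fold change 0.084), whereas 48.9% of all tested genes were higher and their median was -0.0032. Quantile normalization gives both genotypes the same distribution of values. After it 42 members were higher, 29 lower and 11 equal, with a median of 0.0045. Of all 11569 tested genes 5605 were then higher, with a median of -0.0035. The members fill most of the top ranks, so this scaling matches them largely to one another. For a single abundant member, higher or lower after it therefore reflects an exchange of ranks, mostly with other members. Centring on the median of tested genes averaging 1 FPKM or more, which was -0.0051, left the split at 80 and 2.

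Other abundant genes leaned the same way as deposited, and less so after quantile normalization. There were 58 non-members averaging 500 FPKM or more, of which 38 were higher in Etv5 cKO as deposited (median log2 fold change 0.066) and 28 were higher after quantile normalization. The quartiles of the members' log2 fold changes were 0.056 and 0.12. Within 0.2 of zero were 77 of 82 members, against 78.9% of all tested genes. Both subunits gave like values: 48 of 49 large subunit members were higher (median 0.089) and 32 of 33 small subunit members (median 0.081) as deposited, but 29 and 13 after quantile normalization.

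**Figure D2:**
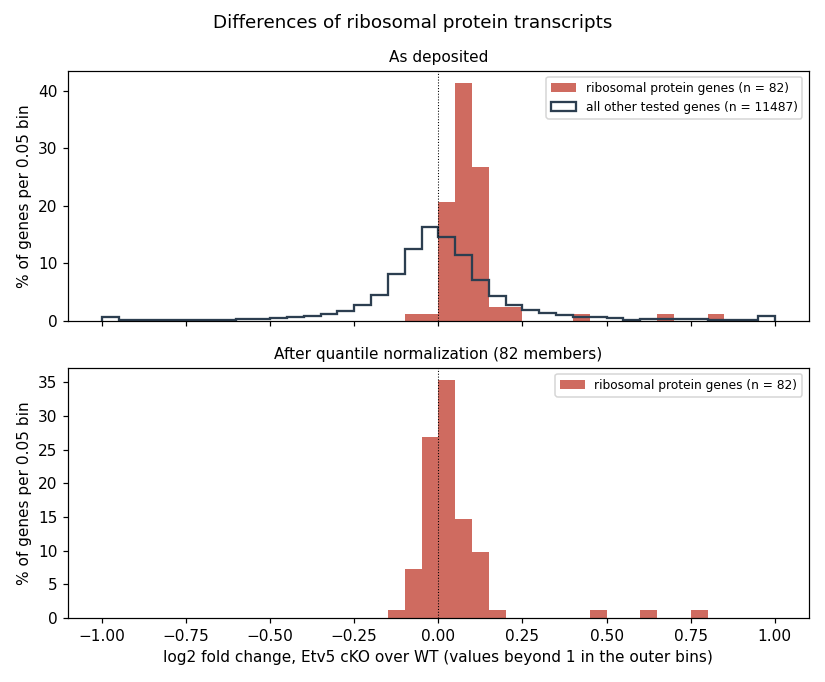
Share of genes (%) per 0.05 bin of the log2 fold change, Etv5 cKO over WT, for 82 ribosomal protein genes (red) and 11487 other tested genes (line), above as deposited and below, for the members, after quantile normalization. The members form a narrow peak on the positive side as deposited (median 0.084), and their median is 0.0045 after quantile normalization.

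Some transcripts of other cell types, most of them erythroid, were called different between the same libraries, and TFH markers were detected in both genotypes. All 8 TFH markers of a list were detected; 6 of them were lower in Etv5 cKO as deposited (median log2 fold change -0.14) and 7 after quantile normalization, and 0 were called. Their levels ran from Il21 (49.7 FPKM in Etv5 cKO and 66.1 in WT, unadjusted Cuffdiff p = 0.0197 in the authors' deposited table) to Cd3e (522 FPKM in Etv5 cKO and 578 in WT). Etv5 itself stood at 2.12 FPKM in Etv5 cKO and 5.24 FPKM in WT (log2 fold change -1.31, Cuffdiff adjusted p = 0.0181 in the authors' deposited table). Erythroid markers summed to 621 FPKM in Etv5 cKO and 143 in WT. Of 11 tested rows 10 were higher (against 48.9% of all tested genes) and 7 called (against 0.346%). The log2 fold changes lay between -0.20 (Hba-a2) and 10.07 (Hbb-bs, 33.7 FPKM in Etv5 cKO and 0.0313 FPKM in WT). Neither of these extreme rows was called, and each shares its interval with another row of the list. Myeloid and dendritic markers summed to 197 FPKM in Etv5 cKO and 139 in WT (10 of 10 tested higher, 1 called, Lyz2), and granulocyte markers to 19.3 FPKM in Etv5 cKO and 9.77 FPKM in WT (4 of 6 tested higher, 1 called, Mpo). CD8 and NK cell markers summed to 24.8 FPKM in Etv5 cKO and 19.4 FPKM in WT (5 of 5 tested higher, 0 called). B cell markers summed to 2.71 FPKM in Etv5 cKO and 1.83 FPKM in WT, and only 1 of 4 was tested (0 called). Ighm of the B cell list and Ahsp of the erythroid list were not found under those symbols and could not be read. Plasma cell markers summed to 86.8 FPKM in Etv5 cKO and 89.1 FPKM in WT (1 of 4 tested higher as deposited and 0 after quantile normalization, 0 called). Proliferation markers were higher in 10 of 10, with 0 called and a median log2 fold change of 0.23. None of the markers found was listed at 0 in either genotype. The part of these markers in the small shift of the ribosomal protein messages was not tested. In bulk RNA, more cells of a type and more RNA per cell cannot be told apart.

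The most abundant members were of both subunits. Rps29, a small zinc-binding protein of the 40S head, stood at 4012 FPKM in Etv5 cKO and 3643 FPKM in WT. Rps12 followed in the small subunit at 2740 FPKM in Etv5 cKO and 2579 FPKM in WT, and Rps23, a protein of the decoding centre, at 2234 FPKM in Etv5 cKO and 2190 FPKM in WT. Rpl41, a very short basic peptide, stood at 2626 FPKM in Etv5 cKO and 2362 FPKM in WT. These 4 differed by log2 fold changes of 0.14, 0.087, 0.028 and 0.15 in the authors' deposited table, with unadjusted p between 0.427 and 0.883. After quantile normalization Rps29 and Rpl41 stayed higher in Etv5 cKO, Rps12 was equal and Rps23 was lower (-0.028). Rps23 exchanged ranks with Rps16 (0.028), so these signs describe rank among abundant genes, largely other members.

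Of the stalk proteins, which recruit elongation factors to the ribosome, Rplp1 and Rplp2 were close to one another. Rplp1 stood at 2973 FPKM in Etv5 cKO and 2766 FPKM in WT, and Rplp2 at 2923 FPKM in Etv5 cKO and 2810 FPKM in WT. Their anchor Rplp0 was lower than both, at 1685 FPKM in Etv5 cKO and 1535 FPKM in WT. As proteins, the stalk holds more copies of P1 and P2 than of P0, and whether message levels follow this was not tested. All 3 were higher in Etv5 cKO as deposited, with log2 fold changes between 0.057 and 0.13. After quantile normalization Rplp2 was lower (-0.024), where it exchanged ranks with Rplp1 (0.024). Rpsa, the laminin receptor homologue of the 40S, stood at 1885 FPKM in Etv5 cKO and 1787 FPKM in WT, and was equal after quantile normalization.

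Among large subunit proteins with further known roles, Rpl5 and Rpl11 form a particle with 5S ribosomal RNA that can bind MDM2 and stabilize p53. Rpl5 stood at 785 FPKM in Etv5 cKO and 746 FPKM in WT, and Rpl11 at 1329 FPKM in Etv5 cKO and 1254 FPKM in WT. Rpl13a, which in human myeloid cells leaves the ribosome after interferon-gamma and represses inflammatory messages, stood at 1617 FPKM in Etv5 cKO and 1498 FPKM in WT. Rpl38, whose loss in mice alters translation of Hox messages, stood at 1329 FPKM in Etv5 cKO and 1274 FPKM in WT. Rpl23a, at the exit of the peptide tunnel, had 1950 FPKM in Etv5 cKO and 1850 FPKM in WT, and Rpl24, which bridges to the small subunit, had 777 FPKM in Etv5 cKO and 715 FPKM in WT. The log2 fold changes of these 6 genes lay between 0.061 and 0.12 in the authors' deposited table, none of them past the test. After quantile normalization Rpl38 was lower (-0.0021) and Rpl5 equal, while Rpl11, Rpl13a, Rpl23a and Rpl24 stayed higher. These signs again describe rank among abundant genes.

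Among small subunit proteins, Rps14 was the member of lowest log2 fold change. It stood at 1344 FPKM in Etv5 cKO and 1422 FPKM in WT (log2 fold change -0.081, unadjusted p = 0.668 in the authors' deposited table). Loss of 1 copy of its human orthologue underlies the anaemia of the 5q- syndrome. Rps19, whose human orthologue is mutated in Diamond-Blackfan anaemia, stood at 823 FPKM in Etv5 cKO and 813 FPKM in WT (log2 fold change 0.017). Rps6, the protein phosphorylated by S6 kinases below mTOR, stood at 1134 FPKM in Etv5 cKO and 1052 FPKM in WT. Rps3, at the entry of the messenger RNA channel, had 872 FPKM in Etv5 cKO and 834 FPKM in WT, and Rps26, near its exit, had 2013 FPKM in Etv5 cKO and 1854 FPKM in WT. Rps25, needed for some internal ribosome entry sites, had 880 FPKM in Etv5 cKO and 792 FPKM in WT. Rps10, modified by ubiquitin when ribosomes collide, had 1538 FPKM in Etv5 cKO and 1394 FPKM in WT. Rps27a, made as a fusion with ubiquitin, had 1160 FPKM in Etv5 cKO and 1082 FPKM in WT. As deposited, each of these 8 but Rps14 was higher in Etv5 cKO, and none passed the test. After quantile normalization Rps19, Rps6, Rps3 and Rps27a were lower as well, again by rank among abundant genes.

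Paralogs of restricted expression were low or absent beside their parents, with exceptions. Rpl10l, a testis copy of Rpl10, was listed at 0 FPKM in both genotypes and was not tested, whereas Rpl10 stood at 1515 FPKM in Etv5 cKO and 1480 FPKM in WT. Rpl3l, the form of heart and skeletal muscle, was listed at 0.0314 FPKM in Etv5 cKO and at 0 in WT and was not tested, whereas Rpl3 stood at 1006 FPKM in Etv5 cKO and 960 FPKM in WT. Rpl39l, found mainly in testis, stood at 1.41 FPKM in Etv5 cKO and 0.806 FPKM in WT, whereas Rpl39 stood at 1553 FPKM in Etv5 cKO and 1507 FPKM in WT. The log2 fold change of Rpl39l, 0.81, was the highest of the tested members in the authors' deposited table, at a level where it shrinks with a pseudocount (unadjusted p = 0.243). Rps4l stood at 2.88 FPKM in Etv5 cKO and 2.62 FPKM in WT, and its X-linked parent Rps4x at 1555 FPKM in Etv5 cKO and 1508 FPKM in WT. The interval of Rps4l carries 5 rows, and another of them had a higher mean (23.8 against 2.75 FPKM), so its level is uncertain.

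Other paralogs were well expressed. Rpl22, which is required for the development of alpha-beta T cells in mice, was below its paralog: Rpl22 stood at 165 FPKM in Etv5 cKO and 156 FPKM in WT, and Rpl22l1 at 244 FPKM in Etv5 cKO and 232 FPKM in WT. The log2 fold change was 0.079 for Rpl22 and 0.075 for Rpl22l1 in the authors' deposited table. Rps27l, a p53 target in human cells, stood at 90.6 FPKM in Etv5 cKO and 81.9 FPKM in WT (log2 fold change 0.15). Rpl7l1 was, beside Rps14, the other member that was lower as deposited, at 30.3 FPKM in Etv5 cKO and 30.6 FPKM in WT (log2 fold change -0.018), while Rpl7 stood at 1480 FPKM in Etv5 cKO and 1413 FPKM in WT. The level of Rps27, the parent of Rps27l, cannot be read from its own row, as the next paragraph shows. Rpl36a, on the X chromosome, stood at 905 FPKM in Etv5 cKO and 849 FPKM in WT, and Rpl36al, which the symbol rule left out, at 480 FPKM in Etv5 cKO and 435 FPKM in WT.

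At 4 members the low level and, for 2 of them, the large difference came with a second row at the same locus. In the authors' deposited table the rows of Rpl34, Rps27, Rpl26 and Rpl30 each share their mm10 interval with a row named for a copy: Rpl34-ps1, Rps27rt, Gm15772 and Gm12191. The Rpl34 and Rps27 rows, the only 2 member rows with more than 1 symbol, also name the copy themselves (Rpl34 with Rpl34-ps1, Rps27 with Rps27rt), so their values are not those of the parent alone. RefSeq places these copies elsewhere, on chromosomes 6, 9, 5 and 11, and counts Rpl34-ps1 and Rps27rt as protein coding and the other 2 as transcribed pseudogenes. At all 4 loci most of the level was in the row of the copy. The member transcripts share 50.6%, 98.6%, 60.6% and 47.8% of their 50-base windows with the copy in the same order (GENCODE M21 transcripts). Shared intervals were common beyond these loci: 36 of the 84 members had an interval with another row, and that of Rps15 carried 48 rows. For 7 members the interval was more than 5 times as long as the RefSeq gene.

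Rpl34 (chr3:130726827-130730398) had the largest log2 fold change of the members above 5 FPKM and the lowest p. Its row stood at 422 FPKM in Etv5 cKO and 268 FPKM in WT, a log2 fold change of 0.66 (unadjusted p = 0.168 in the authors' deposited table). The row named Rpl34-ps1 alone was lower, with 1343 FPKM in Etv5 cKO and 1537 FPKM in WT (log2 fold change -0.19, unadjusted Cuffdiff p = 0.375 in the authors' deposited table). Summed, the locus stood at 1765 FPKM in Etv5 cKO and 1805 FPKM in WT, a log2 ratio of -0.032, so that the direction of Rpl34 is reversed by the sum. The Rpl34 row held 23.9% of the sum in Etv5 cKO and 14.8% in WT.

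Rpl30 (chr15:34440506-34443276) had the next largest log2 fold change above 5 FPKM, 0.45, at 46.1 FPKM in Etv5 cKO and 33.8 FPKM in WT (unadjusted p = 0.694 in the authors' deposited table). With the Gm12191 row the locus stood at 1730.3 FPKM in Etv5 cKO and 1726 FPKM in WT, a log2 ratio of 0.0038. Rps27 (chr3:90212667-90213648) stood at 7.66 FPKM in Etv5 cKO and 7.64 FPKM in WT, against 3614 FPKM in Etv5 cKO and 3653 FPKM in WT for the sum with Rps27rt (log2 ratio -0.015). Summed, this locus was among the most abundant of the family, although its own row was among the lowest. Rpl26 (chr11:68901566-68904534) stood at 74.8 FPKM in Etv5 cKO and 69.1 FPKM in WT, and with Gm15772 at 1578 FPKM in Etv5 cKO and 1510.3 FPKM in WT (log2 ratio 0.064).

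With the 4 loci summed 78 of 82 members were higher and 4 lower in Etv5 cKO, and the median log2 fold change was 0.079. Without the 4 loci and Rpl39l the highest log2 fold change of a member was 0.22, that of Rpl37a, at 1258 FPKM in Etv5 cKO and 1077 FPKM in WT (unadjusted p = 0.228 in the authors' deposited table). Next to it was Rpl31, at 936 FPKM in Etv5 cKO and 813 FPKM in WT (log2 fold change 0.20, unadjusted Cuffdiff p = 0.281 in the authors' deposited table). How the reads of a parent and its copy were divided is not given in the sources used here.

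**Figure D3:**
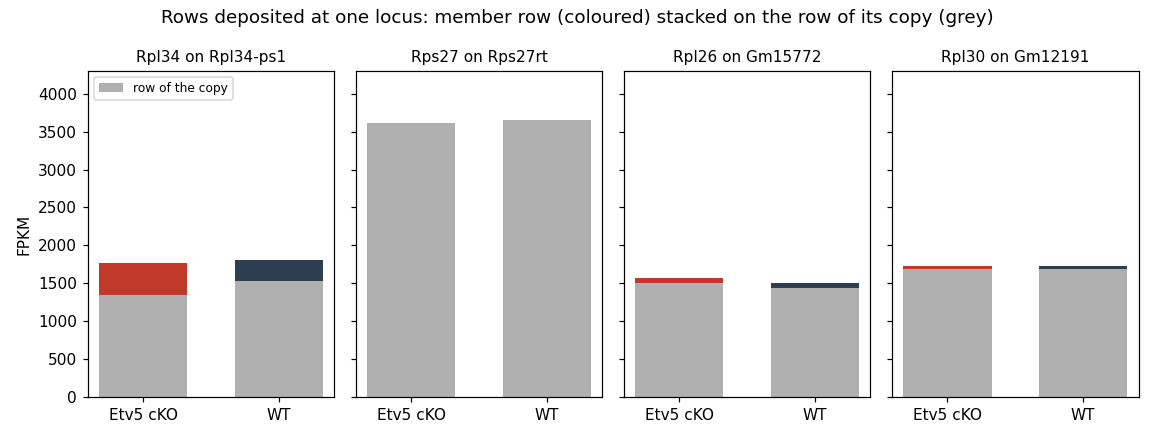
FPKM in Etv5 cKO (left bar) and WT (right bar) at 4 loci where the row of a member (coloured) and the row of a copy (grey) were deposited with the same interval, stacked. The grey row holds most of each bar, and the totals of the 2 genotypes differ by log2 ratios between -0.032 and 0.064.

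Shared sequence was common across the family. Of 83 members with a GENCODE transcript 42 shared more than 50% of their 50-base windows with a transcript of another gene, and the median share was 50.6%. Rpl9 (93.3%) and Rpl10 (92.1%) had high shares and levels above 1000 FPKM in both genotypes. Members above the 50% mark had a median log2 fold change of 0.082 (42 of 42 higher as deposited) and those up to it 0.085 (37 of 39 higher as deposited). Levels of members with shared sequence are uncertain, since reads could be divided with copies.

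**Figure D4:**
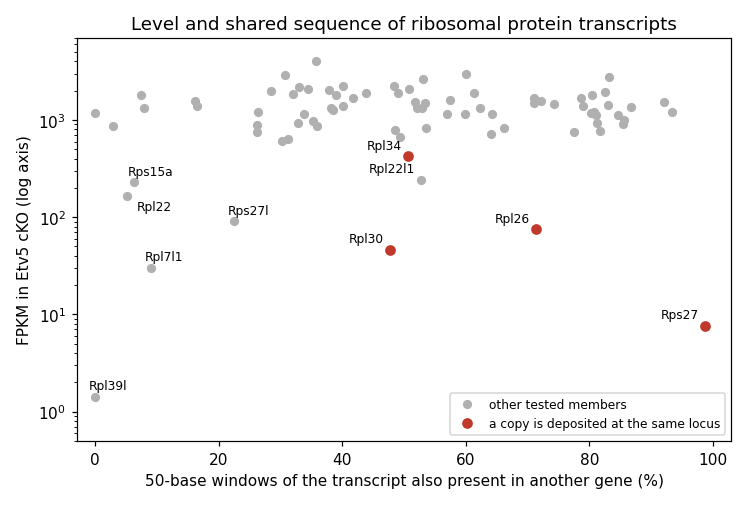
FPKM in Etv5 cKO (log axis) against the percent of each transcript's 50-base windows that also occur in another gene, for 81 tested members. The 4 members with a copy deposited at the same locus (red) lie below the main band at shares of 47.8% to 98.6%, while the tested members above 50% had a median of 1329 FPKM in Etv5 cKO.

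Other genes of protein synthesis were described beside the ribosomal proteins, with 0 called in any of the lists against the 0.346% of all tested genes. Among 22 other TOP messages 20 were higher as deposited (median 0.065) and 18 after quantile normalization (median 0.028). Eef1a1, the elongation factor that delivers aminoacyl-tRNA, stood at 5576 FPKM in Etv5 cKO and 5193 FPKM in WT. The lowest p in that list were those of Vim, a filament protein whose message also carries a TOP motif (198 FPKM in Etv5 cKO and 159 FPKM in WT, unadjusted p = 0.0867), and Eif4a2, an initiation helicase (258 FPKM in Etv5 cKO and 297 FPKM in WT, unadjusted p = 0.275), in the authors' deposited table.

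Mitochondrial ribosomal proteins, which translate the messages of the mitochondrial genome, were higher for 56 of 77 genes as deposited and 57 after quantile normalization (medians 0.066 and 0.070). Their lowest p were those of Mrpl27 (35.0 FPKM in Etv5 cKO and 28.4 FPKM in WT, p = 0.162) and Mrps24 (39.99 FPKM in Etv5 cKO and 32.8 FPKM in WT, p = 0.166), both unadjusted, from the authors' deposited table. Genes of ribosome biogenesis, which make ribosomal RNA and assemble the subunits, were evenly split: 23 of 46 were higher as deposited and 25 after quantile normalization, with a median of 0.0015 as deposited. Polr1e, a subunit of RNA polymerase I, stood at 6.93 FPKM in Etv5 cKO and 5.88 FPKM in WT, and Taf1a, a factor for its initiation, at 7.72 FPKM in Etv5 cKO and 8.85 FPKM in WT. Myc, which drives many of these genes, stood at 20.2 FPKM in Etv5 cKO and 18.9 FPKM in WT.

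Of 13 regulators of TOP message translation 4 were higher and 9 lower in Etv5 cKO as deposited (median log2 fold change -0.042), and 3 were higher after quantile normalization. Larp1, which binds the TOP motif, stood at 27.7 FPKM in Etv5 cKO and 27.4 FPKM in WT, and Mtor at 8.49 FPKM in Etv5 cKO and 9.19 FPKM in WT. Eif4e, the cap-binding protein, stood at 46.2 FPKM in Etv5 cKO and 51.4 FPKM in WT, and its inhibitor Eif4ebp1 at 7.79 FPKM in Etv5 cKO and 6.72 FPKM in WT. These 2 had the lowest unadjusted p of the list, 0.396 and 0.471, in the authors' deposited table. The lists were not tested against one another.

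**Figure D5:**
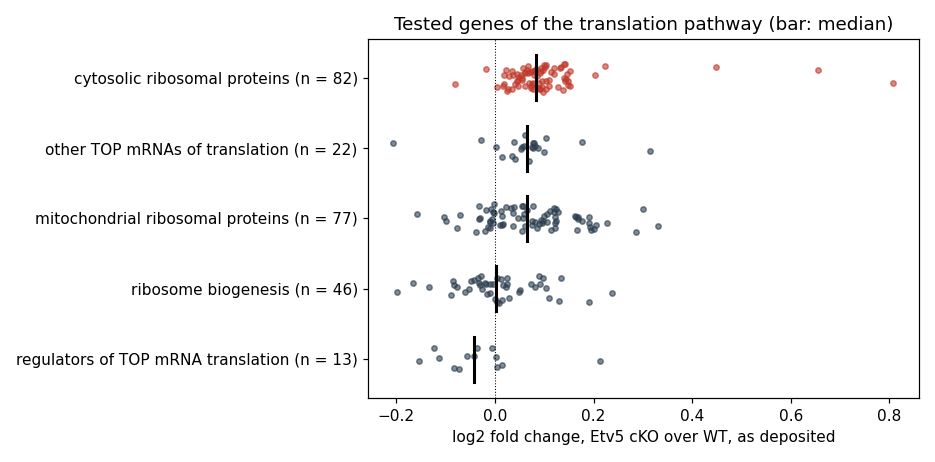
Deposited log2 fold change, Etv5 cKO over WT, of each tested gene in 5 lists (points, spread vertically for legibility) with the list median (bar). Medians are 0.084 for cytosolic ribosomal proteins (0.0045 after quantile normalization), 0.065 for other TOP messages, 0.066 for mitochondrial ribosomal proteins, 0.0015 for ribosome biogenesis and -0.042 for regulators.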

How the data were processed

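Libraries (2 per genotype) were made with a stranded mRNA kit, per the labels. TopHat2 2.0.13, Cuffdiff 2.2.0 and the build mm10 come from the submitters' processing notes. Annotation, strand setting and library normalization: not given in the sources used here. Each genotype's libraries were treated as 1 condition, per the file headers. The deposited columns are the authors' FPKM, log2 fold change (Etv5 cKO over WT, no pseudocount), fold ratio, test score, p-value and adjusted p-value. The ratio and the score were not used. Calls use the deposited adjusted p, with a limit of 0.05. No library values could be fitted, depth is unknown, and 1 empty line was not analysed here; some genes are not reported here by name.

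Members and lists were chosen with earlier results of these data known. Genes were named by level, fold change, lowest p, paralogy and known roles, under a written rule; the loci with 2 rows and the genes Rpl7a, Rpl9, Rpl28, Rpl35, Rps2, Rpl12, Cd3e, Eef1a1, Myc, Larp1 and Mtor were chosen after their values were seen. Deposited starts were printed with 1 added. Shared sequence was the share of 50-base windows of 1 protein-coding GENCODE M21 transcript per member, matched by RefSeq accession where possible. Promoter windows came from RefSeq (GRCm38.p6). Steps were tested on simulated data. Python 3.11.15, pandas 2.3.3, numpy 2.4.6, scipy 1.17.1 and matplotlib 3.10.9 were used.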

Additional observations from a re-analysis of the deposited data

How the results depend on the processing

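The absence of called members held at an adjusted p below 0.1, at an unadjusted p below 0.05, over every listed gene and over rows of a single symbol. Quantile normalization left 42 members higher, 29 lower and 11 equal, against 80 higher and 2 lower as deposited (median log2 fold change 0.0045, lowest -0.15, highest 0.76), 29 of the large subunit (median 0.017) and 13 of the small subunit (median 0). Centring gave a median of 0.089 for all members and 0.086 for the small subunit. The highest log2 fold change was 0.65 with pseudocounts of 1 and of 5 FPKM (0.654 and 0.647) and 0.66 above a mean of 10 FPKM, where Rpl39l drops out. Summing the rows of 1 locus, an alternative chosen after seeing the data, left 4 members lower, a large subunit median of 0.079, a log2 ratio of the summed FPKM of 0.078 (0.087 as deposited) and shares of all FPKM of 21.7% in Etv5 cKO and 21.0% in WT. The share in Etv5 cKO was 20.2% over tested rows, without short micro and small nucleolar RNA rows, and without the shortest loci (the last also added later), and the share in WT was 19.3% over rows of a single symbol. The other 77 recomputed values kept their direction, and log2 values were as reported to 2 decimals. No paired analysis was possible because the table holds 1 value per genotype, and for the same reason no replicate could be left out. With the depth unknown, no detection limit can be given.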

Other observations

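Small nucleolar RNAs, which guide the modification of ribosomal RNA, are encoded in introns of many ribosomal protein genes. The table holds 31 rows of such RNAs at the loci of 22 members. Of these rows 25 were listed at 0 FPKM in both genotypes. The libraries were made with an mRNA kit, and whether it retains such short RNAs was not tested. A value of 0 therefore does not show that the RNA was absent, and the levels listed for the other rows are uncertain. Snora64, in Rps2, was listed at 142 FPKM in Etv5 cKO and 408 FPKM in WT (unadjusted p = 0.485 in the authors' deposited table), while Rps2 stood at 1387 FPKM in Etv5 cKO and 1298 FPKM in WT. Snora65, in Rpl12, was listed at 85.0 FPKM in Etv5 cKO and at 0 in WT (unadjusted p = 0.152 in the authors' deposited table), while Rpl12 stood at 1890 FPKM in Etv5 cKO and 1866 FPKM in WT. None of the 4 tested rows was called (0 by Cuffdiff).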
